A study of Mus musculus with 9 samples.

Results

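Regulatory T cells (Tregs) of lungs resolving an injury were set against Tregs of uninjured lungs, to describe what injury and its resolution change within the lung. In the resolving lung group, the mice had received Escherichia coli lipopolysaccharide, a component of the bacterial outer membrane, into the trachea at 3 mg/kg. In the control lung group, the mice were labelled as uninjured. All mice in both groups were Foxp3EGFP animals on the C57BL/6 background, 8 to 12 weeks old, in which green fluorescent protein reports the Treg factor Foxp3. Lungs were digested with enzymes, lymphocytes were collected through 33% Percoll, and the CD4+ GFP+ cells were sorted by flow cytometry. Total RNA, 225 ng per sample, was hybridised to 1 array per sample. The arrays were chosen by their titles, 3 of resolving lung and 3 of control lung, of 9 in the series. The other 3 held splenic Tregs of injured mice and entered only the estimate of the spread. All 21020 genes whose row matched 1 gene symbol were followed, and 7412 of them were bright, meaning a mean log2 level of 5 or more over the 6 lung arrays. The sources used here do not give the day of harvest, the sex of the mice or the number of mice per array. Nothing in the labels says that replicates came from separate animals, so a p-value here refers to the spread among these arrays, part of which may be technical.

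Tregs restrain immune responses through Foxp3 and depend on interleukin-2, which signals through the Il2ra chain to STAT5. Resting Tregs recirculate through lymphoid organs with the receptor Ccr7 and the transcription factors Tcf7 and Satb1. On activation through the T cell receptor they take up an effector state, with chemokine receptors for inflamed tissue, inhibitory receptors and cell division, and in injured lung they are known to limit inflammation and to support epithelial repair.

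The arrays carried the Treg markers in both groups. Foxp3 was at 10.58, 10.43 and 10.75 in resolving lung and at 10.63, 10.69 and 10.69 in control lung, on the log2 scale of all levels and differences given here. Cd4 lay between 10.82 and 10.92 in resolving lung and between 10.84 and 11.02 in control lung. Il2ra, the high-affinity interleukin-2 receptor chain, was at 10.34, 10.30 and 10.31 in resolving lung and at 9.96, 10.06 and 10.26 in control lung. Ctla4, an inhibitory receptor, and Ikzf2, the Treg factor Helios, were above 9.9 in all 6 lung arrays, and none of these 5 genes passed the test described next. The arrays were not equally alike. Resolving lung replicate 1 was the most distant array of its group for 48.8% of bright genes, and control lung replicate 1 for 37.3%. The level of Xist, which coats a silenced X chromosome, was 2.44 in resolving lung replicate 1, 9.11 and 9.13 in the other resolving lung arrays, and 9.04, 8.23 and 9.08 in control lung. Among the spleen arrays it was 2.33 in replicate 1, and 8.89 and 8.91 in the others. The Y-linked gene Ddx3y was at 8.21, 7.48 and 7.69 in resolving lung, against 7.72, 7.99 and 7.39 in control lung. Both genes were chosen after their values were seen. Xist was low in replicate 1 of resolving lung and of spleen and high in the other 7 arrays.

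Each gene was tested with limma, a linear model fitted over all genes, with Benjamini-Hochberg adjustment and a threshold of 0.05. Of the 7412 bright genes, 80 passed (1.08%). Lower levels in resolving lung were the more frequent call, with 60 falls (0.809%) against 20 rises (0.27%). The median fall was -0.82 and 21 of the 60 were at least 2-fold, while the median rise was 0.68 and 3 of the 20 reached 2-fold. In 4 of the 20 rises the control lung mean was below the level of 5. In 4 of the 60 falls the resolving lung mean was below it. Before adjustment, 945 bright genes were lower (12.7%) and 1126 higher (15.2%) at a p under 0.05. Counts of calls moved with single arrays. Without resolving lung replicate 1, 2 or 3, 33, 19 and 105 bright genes were lower and 8, 3 and 59 higher. Without control lung replicate 1, 2 or 3, 4, 8 and 4 were lower and 0, 6 and 1 higher. Without spleen replicate 1, 2 or 3, 7, 3 and 5 were lower and 3, 0 and 1 higher. With the 6 lung arrays fitted alone none passed. With the replicate number as a block in all 3 groups, 6 bright genes were lower and 5 higher. With same-numbered resolving lung and spleen arrays as random blocks and each control lung array on its own, 63 were lower and 23 higher. Irs2 and Gch1 were the only bright genes still called whichever of the 9 arrays was left out.

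**Figure D1:**
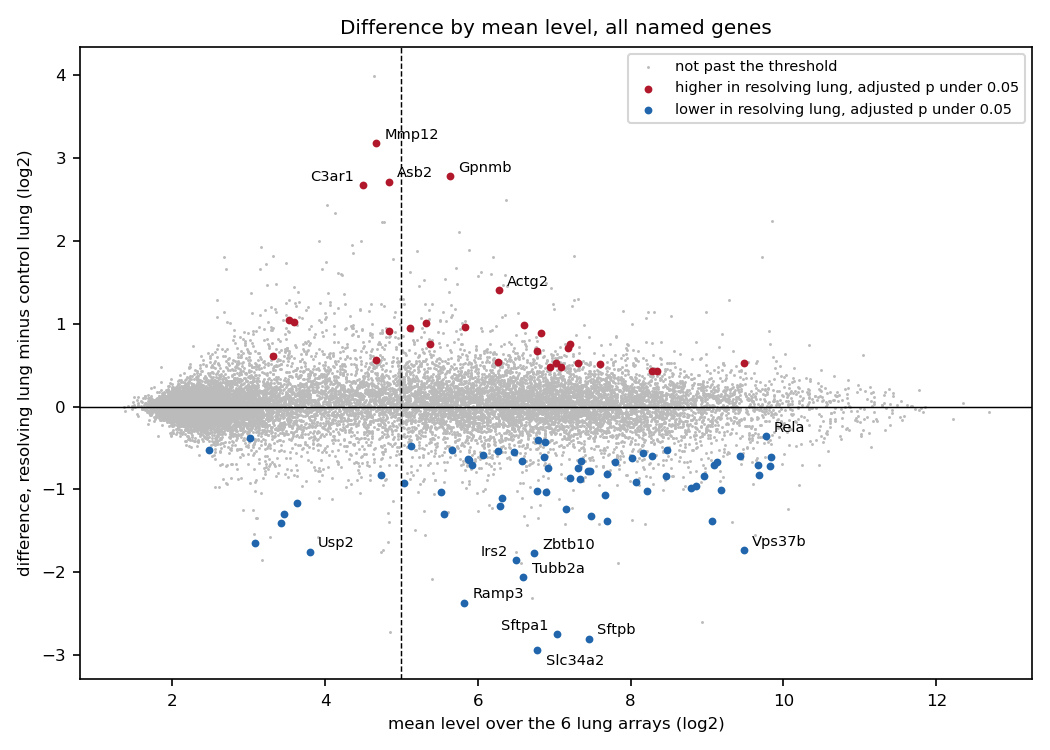
Difference between resolving lung and control lung (log2, vertical axis) against the mean level over the 6 lung arrays (log2, horizontal axis) for 21020 genes. Coloured points passed the limma threshold, the dashed line marks the level of 5, and the 60 bright falls (blue) reach -2.94 while the 20 bright rises (red) reach 2.79.

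Irs2 and Gch1 were lower in resolving lung with the smallest adjusted p-values of the bright genes. Irs2, an adaptor that links insulin and some cytokine receptors to PI3 kinase, was at 5.51, 5.41 and 5.80 in resolving lung and at 7.30, 7.55 and 7.41 in control lung. The groups lay 1.50 apart at their nearest arrays, and the difference was -1.85 (SE 0.15, 3.61-fold lower, limma adjusted p = 0.00967). Gch1, the first enzyme of tetrahydrobiopterin synthesis, was at 5.71, 5.57 and 5.80 in resolving lung and at 6.78, 6.93 and 6.99 in control lung. Its nearest arrays were 0.98 apart, and it was 2.30-fold lower (difference -1.20, SE 0.09, limma adjusted p = 0.00967). With 1 array left out at a time, the difference ranged from -1.96 to -1.77 for Irs2 and from -1.27 to -1.14 for Gch1. H60b, a ligand of the killer cell receptor NKG2D, had levels of 4.98, 4.96 and 4.80 in resolving lung, against 5.98, 6.42 and 6.24 in control lung (difference -1.30, limma adjusted p = 0.0204). Kdm6b, which removes methyl groups from lysine 27 of histone H3, was at 8.34, 8.39 and 8.16 in resolving lung and at 9.35, 9.17 and 9.31 in control lung (difference -0.98, limma adjusted p = 0.0130). Dennd4a, an activator of Rab GTPases, was at 8.38 in each resolving lung array and at 9.48, 9.38 and 9.15 in control lung (difference -0.96, limma adjusted p = 0.0141). The last 3 genes stayed past the threshold in 7 of the 9 fits with 1 array left out.

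The promoters of genes that moved together are shown because stimulus-responsive genes often carry short recognition sequences near their start. The 250 bases before the start were taken from the RefSeq promoter table (GRCm38.p6), which matched 48 of the 60 bright falls and 13 of the 20 bright rises. Capitals mark a match, on either strand, to the cAMP response element TGACGTCA or its shorter form TGACG, to the E-box CACGTG, to the AP-1 site TGANTCA or to an NF-kB site. TGACG lies inside TGACGTCA, so the same bases can count for both. Irs2, on the minus strand at chr8:11008930-11009179, holds an E-box. Gch1, on the minus strand at chr14:47189414-47189663, holds TGACG and an NF-kB site at the end next to the start. Tubb2a, on the minus strand at chr13:34078009-34078258, holds the whole cAMP response element. Ifngr2, on the plus strand at chr16:91546809-91547058, holds an NF-kB site. Gpnmb, the largest bright rise, on the plus strand at chr6:49036268-49036517, holds none of the motifs. Each sequence is written 5′ to 3′ in the direction of its gene.
Irs2: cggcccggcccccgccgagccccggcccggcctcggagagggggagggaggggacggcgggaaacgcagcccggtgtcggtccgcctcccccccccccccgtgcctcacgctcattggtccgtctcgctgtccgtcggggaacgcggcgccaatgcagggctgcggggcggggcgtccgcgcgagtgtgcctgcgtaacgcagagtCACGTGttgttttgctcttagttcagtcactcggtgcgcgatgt
Gch1: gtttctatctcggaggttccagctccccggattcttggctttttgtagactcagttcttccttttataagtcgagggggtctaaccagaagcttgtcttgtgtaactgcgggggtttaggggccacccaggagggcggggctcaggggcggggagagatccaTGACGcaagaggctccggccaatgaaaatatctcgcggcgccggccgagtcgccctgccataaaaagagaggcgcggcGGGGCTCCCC
Tubb2a: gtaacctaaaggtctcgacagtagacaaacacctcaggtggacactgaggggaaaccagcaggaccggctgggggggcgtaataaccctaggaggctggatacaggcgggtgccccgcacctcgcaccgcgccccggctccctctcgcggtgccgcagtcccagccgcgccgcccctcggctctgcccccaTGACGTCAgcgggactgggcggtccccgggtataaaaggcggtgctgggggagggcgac
Ifngr2: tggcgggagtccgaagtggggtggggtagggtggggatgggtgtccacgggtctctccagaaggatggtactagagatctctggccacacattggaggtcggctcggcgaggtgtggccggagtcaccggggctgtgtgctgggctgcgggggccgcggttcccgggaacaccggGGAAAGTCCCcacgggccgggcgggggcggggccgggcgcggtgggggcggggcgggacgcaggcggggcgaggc
Gpnmb: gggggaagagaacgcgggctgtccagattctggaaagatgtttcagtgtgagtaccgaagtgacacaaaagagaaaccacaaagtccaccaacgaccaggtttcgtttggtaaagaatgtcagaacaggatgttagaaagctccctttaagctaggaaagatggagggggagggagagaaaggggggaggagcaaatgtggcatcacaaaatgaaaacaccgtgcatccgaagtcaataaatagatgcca
An NF-kB site was found in 14 of 48 promoters of bright falls (29.2%) and in 1 of 13 of bright rises (7.69%), against 10.5% of promoters of all bright genes and 8.23% of all promoters of the table. TGACG was found in 20 of 48 falls (41.7%) and 2 of 13 rises (15.4%), against 33.6% of bright genes and 19.8% of all promoters. TGACGTCA was in 3 of 48 falls (6.25%) against 3.33% of bright genes and 1.77% of all promoters. CACGTG was in 8 of 48 (16.7%) against 10.4% of bright genes and 6.86% of all. TGANTCA was in 3 of 48 (6.25%) against 4.97% of bright genes and 7.82% of all. None of the last 3 motifs was found in the promoters of the 13 rises. These shares are counts of letters, with no test.

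The largest bright falls were in genes of alveolar epithelium. Slc34a2, the phosphate transporter of type II cells, was at 5.82, 5.23 and 4.87 in resolving lung and at 9.13, 7.83 and 7.80 in control lung (difference -2.94, SE 0.39, limma adjusted p = 0.0339). Both surfactant protein genes past the threshold were far lower in resolving lung. Sftpb was at 6.50, 5.87 and 5.81 in resolving lung and at 9.65, 8.49 and 8.43 in control lung, and Sftpa1 was at 5.91, 5.46 and 5.63 in resolving lung and at 9.33, 7.90 and 8.00 in control lung. Their differences were -2.80 and -2.75 (limma adjusted p = 0.0371 and 0.0323). Every resolving lung array was below every control lung array by 1.93 or more in these 3 genes, and control lung replicate 1 was the highest array in each. Sftpc, the surfactant protein specific to type II cells, had a gap of 1.22 (8.48, 7.24 and 7.17 in resolving lung, 11.04, 9.95 and 9.71 in control lung) but did not pass (limma adjusted p = 0.109). Cxcl15, a chemokine of lung epithelium, had a gap of 1.38 and an adjusted p of 0.0524. Of 25 alveolar epithelial markers 21 were measured, 13 of them above the dim level in all 6 lung arrays and 1 at or below it in all 6. The dim level was the 95th percentile of olfactory receptor genes in an array. Of the 10 bright markers 9 did not overlap between the groups and were lower in resolving lung, and 3 passed. Among all 21 measured markers, 19 had a lower mean in resolving lung and 2 a higher one. In 11 of them every resolving lung array was lower, and in 1, Pdpn, every one was higher. Pdpn was not bright and did not pass (difference 1.66, gap 0.64). The other marker with a higher mean, Epcam, overlapped between the groups (difference 0.13). The summed level of the 21 markers was 10.38, 9.81 and 9.72 in resolving lung, against 12.50, 11.43 and 11.35 in control lung. In bulk samples, fewer cells of a type and less RNA per cell cannot be told apart. The part of epithelial RNA in other results was not tested.

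Receptor and signalling genes were among the other falls. Ramp3, an accessory protein of calcitonin-family receptors, was at 4.33, 5.42 and 4.17 in resolving lung and at 7.47, 6.68 and 6.88 in control lung (difference -2.37, SE 0.32, limma adjusted p = 0.0339). Endothelium also expresses Ramp3. The summed level of 21 endothelial markers, Ramp3 included, was 9.68, 9.67 and 9.51 in resolving lung, against 10.56, 10.07 and 9.89 in control lung, and its part in this result was not tested. Of these markers 3 were above the dim level in all 6 lung arrays and 6 at or below it in all 6. Cdh5, the cadherin of endothelial junctions, was at 5.98, 4.18 and 4.13 in resolving lung and at 7.21, 3.73 and 2.48 in control lung, so that its groups overlapped. Ifngr2, the signalling chain of the interferon-gamma receptor, was at 6.76, 7.32 and 7.30 in resolving lung and at 8.36, 8.15 and 8.09 in control lung (difference -1.07, limma adjusted p = 0.0346). Ifnar1, a chain of the type I interferon receptor, had levels of 9.21, 9.60 and 9.60 in resolving lung, against 10.12, 10.24 and 10.21 in control lung (difference -0.72, limma adjusted p = 0.0386). Both receptor chains were lower in every resolving lung array than in any control lung array, by 0.77 and 0.53. The other chain of each receptor overlapped between the groups, Ifngr1 with a difference of -0.17 and Ifnar2 with 0.057. Of 35 bright interferon-stimulated genes, 12 were higher and 3 lower in every resolving lung array, against 16.2% and 13.4% of all bright genes. None of the 35 passed, and their median difference was 0.13. Downstream of cytokine receptors, Jak2, a receptor-associated kinase, fell by 0.60, and Stat5a, which carries the interleukin-2 signal, by 0.74. Gpr132, a G protein-coupled receptor for lipids, fell by 1.00, and Lrig1, a feedback inhibitor of growth factor receptors, by 1.32.

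Genes of calcium entry, NF-kB and AP-1 were among the smaller falls. Orai1, the pore of the store-operated calcium channel, fell by 0.61. Rel, the NF-kB subunit c-Rel on which Treg development depends, was at 9.44, 9.40 and 9.12 in resolving lung and at 10.17, 9.91 and 9.98 in control lung (difference -0.70, limma adjusted p = 0.0478). Rela, the p65 subunit, was at 9.64, 9.53 and 9.60 in resolving lung and at 9.95, 9.92 and 9.96 in control lung. Its difference of -0.35 was the smallest of the 60 falls, at an adjusted p of 0.0498. Birc3, an inhibitor of apoptosis and an NF-kB target, fell by 0.53, and Nkrf, a repressor of NF-kB target genes, by 0.53. The AP-1 subunit Fosl2 was at 7.85, 7.85 and 7.41 in resolving lung and at 8.87, 8.82 and 8.46 in control lung (difference -1.02, limma adjusted p = 0.0371). Ets2, another transcription factor that responds to receptor signals, fell by 0.83.

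The remaining falls spread over sorting, metabolism and gene control. Vps37b, a subunit of the endosomal sorting complex that delivers receptors to lysosomes, was at 8.13, 9.13 and 8.59 in resolving lung and at 10.58, 10.31 and 10.16 in control lung (difference -1.73, limma adjusted p = 0.0371). Tubb2a, a beta tubulin, was at 5.20, 5.79 and 5.70 in resolving lung and at 8.16, 7.34 and 7.37 in control lung (difference -2.05, limma adjusted p = 0.0323). Its probes may also read Tubb2b, a near-identical copy, as those of H60b may read other H60 genes. Zbtb10, a zinc finger repressor, was 3.40-fold lower (difference -1.77, limma adjusted p = 0.0470), with resolving lung replicate 1 the lowest array at 5.26. Zdhhc23, a palmitoyltransferase, was at 6.93, 7.29 and 6.76 in resolving lung and at 8.44, 8.20 and 8.50 in control lung (difference -1.38, limma adjusted p = 0.0163). Gramd3, a lipid-binding membrane protein, and C9orf72, a regulator of autophagy and endosomal traffic, fell by 1.38 and 1.10. In insulin and growth signalling, Phlpp1, a phosphatase that inactivates AKT, fell by 0.78, as did Ulk1, the kinase that starts autophagy. In gene control, the clock repressor Per1 fell by 0.84, the MYC antagonist Mxi1 by 0.87, the chromatin remodeller Chd7 by 0.81 and the histone methyltransferase Dot1l by 0.59. Aff4 and Hexim1, which promote and restrain transcription elongation, fell by 0.67 and 0.56. Eif2ak3, the stress sensor PERK of the endoplasmic reticulum, fell by 0.66.

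**Figure D2:**
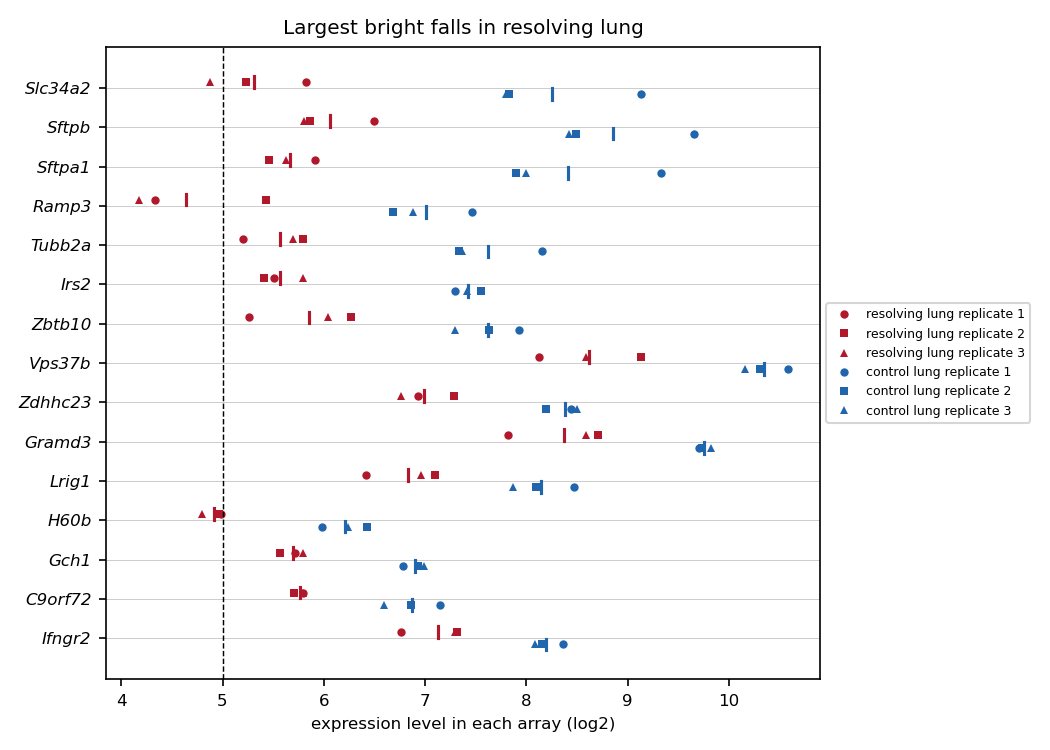
Levels (log2, horizontal axis) of the 15 bright genes with the largest falls in each of 3 resolving lung arrays (red) and 3 control lung arrays (blue), with group means as bars and the level of 5 dashed. In every gene all resolving lung arrays lie left of all control lung arrays, by 1.50 in Irs2 and 0.98 in Gch1.

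Gpnmb had the largest rise among bright genes. Gpnmb, which encodes a transmembrane protein of phagocytes and pigment cells, was at 7.63, 6.91 and 6.55 in resolving lung and at 4.34, 4.02 and 4.37 in control lung. It was 6.89-fold higher (difference 2.79, SE 0.25, limma adjusted p = 0.0130), with a gap of 2.18 between the nearest arrays, and stayed past the threshold in 6 of 9 fits with 1 array left out. Actg2, an actin of smooth muscle, was at 7.18, 7.07 and 6.70 in resolving lung and at 5.71, 5.75 and 5.25 in control lung (difference 1.41, SE 0.20, limma adjusted p = 0.0371), and its probes may also read other actins. Acta2, the other smooth muscle actin, overlapped between the groups, at 4.95, 2.54 and 2.79 in resolving lung, against 5.79, 2.80 and 2.39 in control lung. Of 21 markers of fibroblasts and smooth muscle, Actg2 included, 6 were at or below the dim level in all 6 lung arrays. Their summed level was 10.60, 8.62 and 8.79 in resolving lung, against 9.50, 8.24 and 7.96 in control lung, and its part in the rise of Actg2 was not tested.

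The other bright rises were smaller. Morrbid, a long non-coding RNA that restrains the death gene Bcl2l11 in mouse myeloid cells, was at 5.97, 5.65 and 5.86 in resolving lung and at 4.63, 4.84 and 4.99 in control lung (difference 1.01, limma adjusted p = 0.0339). Bcl2l11, the death activator Bim, lies near Morrbid and was at 6.10, 6.97 and 6.78 in resolving lung and at 8.03, 7.72 and 7.80 in control lung, short of the threshold (difference -1.23, limma adjusted p = 0.0599). Unc119, a chaperone of lipid-modified proteins, was at 7.43, 6.88 and 6.98 in resolving lung and at 6.25, 6.01 and 6.10 in control lung (difference 0.98, limma adjusted p = 0.0371). Parpbp, an inhibitor of recombination repair, was at 6.39, 6.11 and 6.44 in resolving lung and at 5.32, 5.34 and 5.41 in control lung (difference 0.96, limma adjusted p = 0.0323). Trdmt1, a methyltransferase of transfer RNA, rose by 0.95 with all resolving lung arrays between 5.54 and 5.65 and all control lung arrays between 4.43 and 4.86. Smaller rises came in Naip2, a sensor of bacterial secretion proteins (0.76, with near-identical Naip genes), Eloc, the elongin C subunit of ubiquitin ligases (0.75), and Kif20b, a mitotic kinesin (0.66). Others came in Zmpste24, the protease that matures lamin A (0.52), Cbx3, a heterochromatin protein with related copies (0.52), Irak4, a kinase of Toll-like receptor signalling (0.51), and Fdft1, squalene synthase (0.43). Utp6 and Utp11, factors of ribosomal RNA processing, rose by 0.54 and 0.47.

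**Figure D3:**
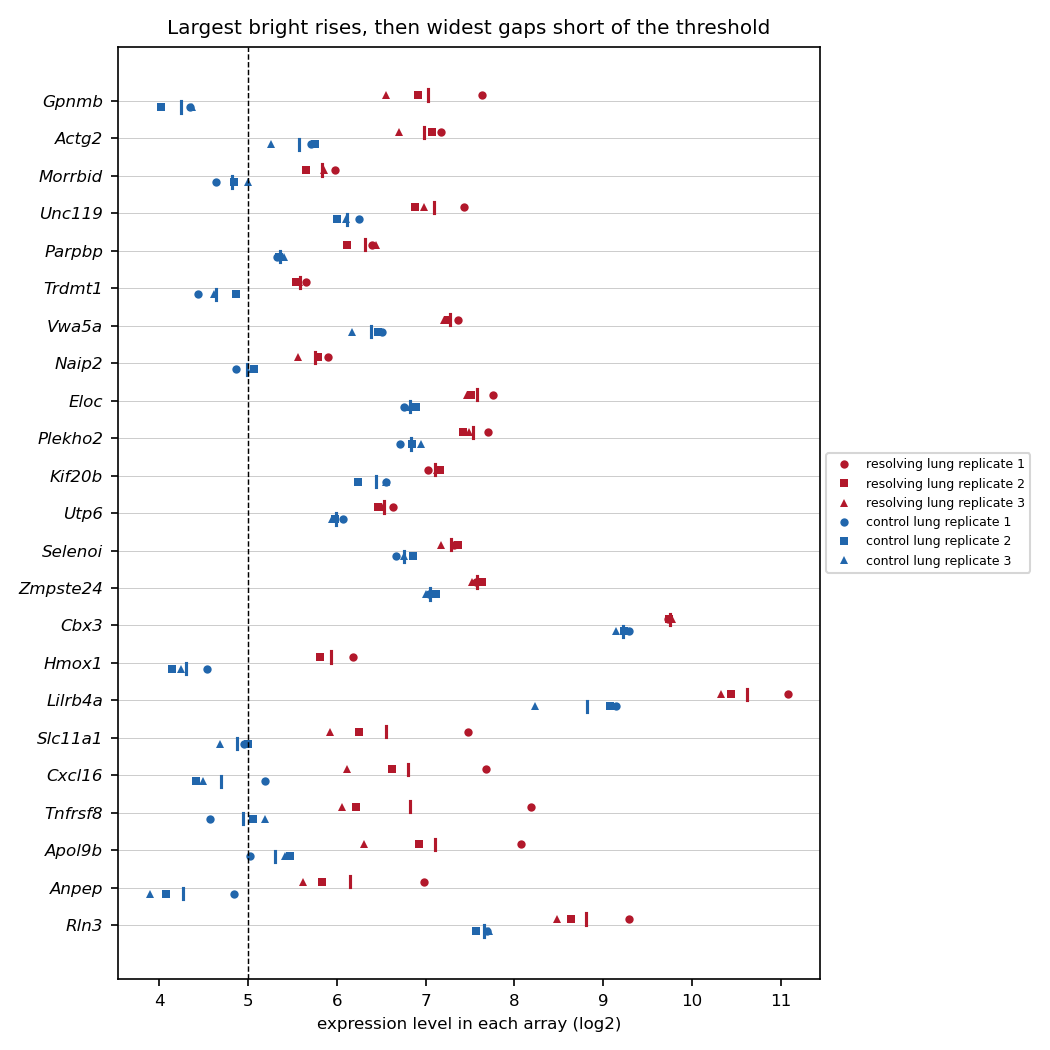
Levels (log2, horizontal axis) in each of 3 resolving lung arrays (red) and 3 control lung arrays (blue) for the 15 bright genes with the largest rises and, below them, 8 bright genes with wide gaps that did not pass the threshold. Group means are bars and the level of 5 is dashed. Resolving lung replicate 1 (red circle) is the highest array in Tnfrsf8 at 8.19 and in Apol9b at 8.07.

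Which changes held in every array was counted apart from the test. The 3 resolving lung arrays lay on 1 side of the 3 control lung arrays in 2190 of 7412 bright genes (29.5%), 1198 of them higher in resolving lung (16.2%) and 992 lower (13.4%). A gap of 0.5 or more between the nearest arrays was met by 93 bright genes (1.25%), 31 higher (0.418%) and 62 lower (0.836%). Of the 62 lower genes 34 passed the test, and of the 31 higher genes 9 did. The falls were more even than the rises: replicates 1, 2 and 3 of resolving lung differed from the control mean by a median of -1.34, -0.96 and -1.07 in the falls and of 1.84, 1.08 and 1.00 in the rises. Resolving lung replicate 1 was the array farthest from the control mean in 38 of the 62 falls (61.3%) and in 28 of the 31 rises (90.3%), against 57.9% of all bright genes. In 21 of the falls and 12 of the rises, even the nearest resolving lung array was at least 2-fold from the control mean. In 12 of the 31 rises the control mean was below the level of 5, and in 8 of the 62 falls the resolving lung mean was. Without resolving lung replicate 1, the gap was met by 77 falls and 37 rises, and without replicate 3 by 121 falls and 81 rises. Without control lung replicate 1, 2 or 3, 49, 47 and 56 rises met it. Without resolving lung replicate 2, 102 falls met it. The 1198 genes higher in every array became 1883 without resolving lung replicate 3 and 1819 without control lung replicate 3. A gap cannot shrink when an array is left out, so rises of these counts follow from the rule itself.

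**Figure D4:**
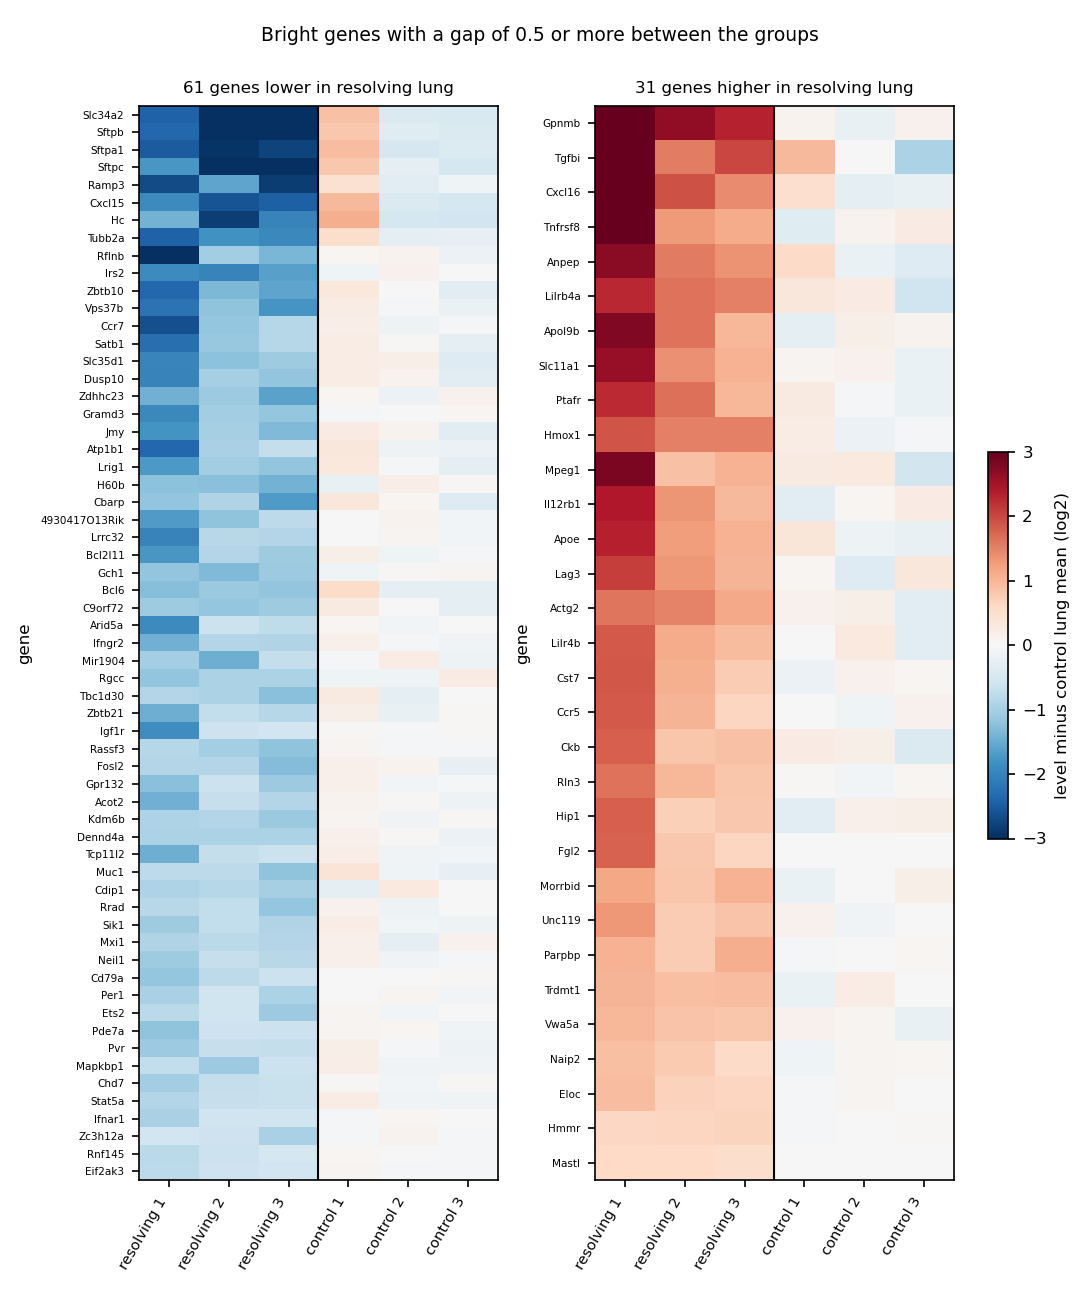
Level minus the control lung mean (log2, colour) in each lung array for bright genes lower (all but 1 of the 62) and the 31 bright genes higher in resolving lung with a gap of 0.5 or more between the groups. The 3 resolving lung columns stand left of the 3 control lung columns, and colours end at -3 and 3. The colour of resolving lung replicate 1 is the deepest in 28 of the 31 higher genes.

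Some of the widest gaps among rises belonged to genes that did not pass the test. Hmox1, the enzyme that degrades haem, was at 6.18, 5.81 and 5.81 in resolving lung and at 4.54, 4.14 and 4.24 in control lung (difference 1.63, gap 1.27, limma adjusted p = 0.0661). Lilrb4a, an inhibitory receptor of myeloid cells and activated T cells, was at 11.08, 10.44 and 10.33 in resolving lung and at 9.15, 9.07 and 8.23 in control lung (difference 1.80, gap 1.18, limma adjusted p = 0.0522), and its near copy Lilr4b may share its probes. Cxcl16, the ligand of Cxcr6, was at 7.68, 6.62 and 6.12 in resolving lung and at 5.19, 4.42 and 4.49 in control lung (limma adjusted p = 0.0620). In all 3 genes every resolving lung array was above the control mean by 1.42 or more. Slc11a1, a metal transporter of phagosomes, had a gap of 0.93, Tnfrsf8, the receptor CD30, 0.87, and Anpep, an aminopeptidase of myeloid and epithelial cells, 0.77.

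Macrophage markers were measured beside the phagocyte genes named above. Of 27 macrophage markers 23 were measured, 7 of them above the dim level in all 6 lung arrays and 4 at or below it in all 6. Siglecf, which marks alveolar macrophages, was among these 4 (2.37, 2.23 and 2.19 in resolving lung, 2.78, 2.49 and 2.20 in control lung). Of the 23 markers, 19 had a higher mean in resolving lung and 4 a lower one, with a median difference of 0.71. Over all 21020 genes, 11040 had a higher mean and 9976 a lower one. Their summed level was 11.91, 9.50 and 9.50 in resolving lung, against 10.23, 9.32 and 8.73 in control lung, so that the groups overlapped and resolving lung replicate 1 was the highest. Csf1r, the growth factor receptor of macrophages, was at 8.44, 6.16 and 6.31 in resolving lung and at 5.76, 5.81 and 4.53 in control lung, short of the threshold (limma adjusted p = 0.320). Of the 6 bright markers 3 were higher in every resolving lung array and none passed. Their median difference was 1.34, and 0.56 without resolving lung replicate 1. In the same fit without that array, the difference of Gpnmb was 2.48. Gpnmb is a single gene named for its large rise, so its value and the median of the 6 markers are not like measures. The part of macrophage RNA in the levels of Gpnmb and the other phagocyte genes was not tested. Of 31 bright genes of lysosomes and phagocytosis, 12 were higher in every resolving lung array and none lower, with 1 past the threshold (Gpnmb) and a median of 0.31, against 0.026 over all bright genes. That median was 0.16 without resolving lung replicate 1 and 0.56 without replicate 2. Ctsb, a lysosomal protease, was at 11.06, 10.66 and 10.40 in resolving lung and at 10.01, 9.90 and 9.99 in control lung (limma adjusted p = 0.0782).

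Genes of the effector and resting Treg states stood on opposite sides, with none past the threshold. Of 27 bright effector genes, 11 were higher and 2 lower in every resolving lung array, and the median was 0.51 (0.30 without resolving lung replicate 1). Lag3, an inhibitory receptor, was at 6.57, 5.80 and 5.52 in resolving lung and at 4.56, 4.11 and 4.84 in control lung (limma adjusted p = 0.0739). Cxcr3 and Ccr2, receptors that guide T cells into inflamed tissue, did not overlap between the groups. Cxcr3 was at 9.48, 9.25 and 9.18 in resolving lung and at 8.46, 8.79 and 8.77 in control lung (limma adjusted p = 0.0915). Ccr2 was at 9.48, 9.59 and 9.35 in resolving lung and at 8.98, 8.87 and 9.03 in control lung (limma adjusted p = 0.105). Of 18 bright resting Treg genes, 11 were lower and none higher in every resolving lung array, and the median was -0.71 (-0.30 without resolving lung replicate 1). Satb1, a chromatin organizer, was at 6.63, 7.76 and 8.03 in resolving lung and at 9.11, 8.94 and 8.63 in control lung (limma adjusted p = 0.107). Ccr7, the lymph node homing receptor, was at 7.76, 9.25 and 9.54 in resolving lung and at 10.60, 10.26 and 10.35 in control lung (limma adjusted p = 0.132). In both genes resolving lung replicate 1 was the lowest array by over 1.1. Of 17 bright Treg core genes, 4 were higher and 1 lower in every resolving lung array, the lower one being Lrrc32, the surface anchor of latent TGF-beta (8.66, 9.85 and 9.79 in resolving lung, 10.69, 10.75 and 10.58 in control lung, limma adjusted p = 0.105). Among repair genes, Areg, the epithelial growth factor amphiregulin, overlapped between the groups, at 8.82, 8.23 and 7.71 in resolving lung, against 7.95, 8.14 and 8.23 in control lung. Il1rl1, the interleukin-33 receptor, was at 8.93, 9.23 and 8.84 in resolving lung and at 9.59, 9.50 and 9.56 in control lung, short of the threshold (difference -0.55, limma adjusted p = 0.205).

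Most of the signalling lists given here had medians below 0. The bright checkpoint and costimulation genes had a median of 0.061, and the bright chemokine and homing receptors one of -0.0001. Of 22 bright NF-kB genes, 10 were lower and none higher in every resolving lung array, 3 fell past the threshold (Rel, Rela and Birc3), and the median was -0.26. Of 33 bright immediate early and AP-1 genes, 16 were lower and 3 higher in every array, 1 fell (Fosl2), and the median was -0.23. Dusp10, a phosphatase of stress kinases, was at 8.03, 9.03 and 8.83 in resolving lung and at 10.24, 10.12 and 9.70 in control lung (limma adjusted p = 0.0620), while Rgs16, which shortens G protein signals, was at 9.05, 8.41 and 7.96 in resolving lung and at 7.57, 7.45 and 6.95 in control lung (limma adjusted p = 0.139). Of 26 bright genes of cAMP and CREB signalling, 12 were lower and 1 higher in every array, 4 fell (Irs2, Ramp3, Fosl2 and Per1), and the median was -0.20. Sik1, a kinase induced by cAMP, was at 8.55, 8.88 and 8.73 in resolving lung and at 9.85, 9.53 and 9.47 in control lung (limma adjusted p = 0.0620). Of 34 bright insulin, PI3K and FoxO genes, 12 were lower and 3 higher in every array, 1 fell (Irs2), and the median was -0.24 (-0.13 without resolving lung replicate 1). Of 32 bright T cell receptor signalling genes, 11 were lower and 3 higher in every array, and the median was -0.14 (-0.060 without resolving lung replicate 1). Of 29 bright cytokine receptor and SOCS genes, 7 were higher and 7 lower in every array, and the median was 0.081. The 2 past the threshold were both interferon receptor chains. These counts, and those of the lists above and below, are read against 16.2% and 13.4% of bright genes that were higher and lower in every array. The lists were chosen with earlier results of these data known, so calls among their members are no separate evidence for a pathway. A gene can also count in more than 1 list, as Irs2 and Fosl2 do here.

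Lists of cell division had medians above 0. Over all bright genes, 16.2% were higher and 13.4% lower in every array. The counts of higher DNA replication and oxidative phosphorylation genes, and of lower ribosomal protein genes, lay near these shares. Of 48 bright mitosis genes, 29 were higher in every resolving lung array and none lower, 1 rose (Kif20b), and the median was 0.53. Hmmr, a spindle protein, was at 6.79, 6.82 and 6.84 in resolving lung and at 6.11, 6.19 and 6.20 in control lung, with an adjusted p of 0.0546 by limma. Kif20a, a kinesin of cell separation, was at 7.75, 7.47 and 7.34 in resolving lung and at 6.51, 6.86 and 6.92 in control lung (limma adjusted p = 0.109). Hmmr was even across the arrays of each group, while Kif20a was highest in resolving lung replicate 1. Of 39 bright DNA replication genes, 7 were higher in every array, none passed, and the median was 0.34 (0.17 without resolving lung replicate 1). Of 37 bright DNA repair genes, 13 were higher in every array and 1 rose (Parpbp), with a median of 0.21. Of 22 bright apoptosis genes, 13 were higher and 2 lower in every array, 1 rose (Morrbid), and the median was 0.34. Of 41 bright oxidative phosphorylation genes, 8 were higher and none lower in every array, none passed, and the median was 0.18 (0.087 without resolving lung replicate 1 and 0.12 without control lung replicate 2). Of 34 bright ribosomal protein genes, 4 were lower in every array, none passed, and the median was -0.027 (-0.081 to -0.007 with 1 array left out), against 0.026 over all bright genes.

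**Figure D5:**
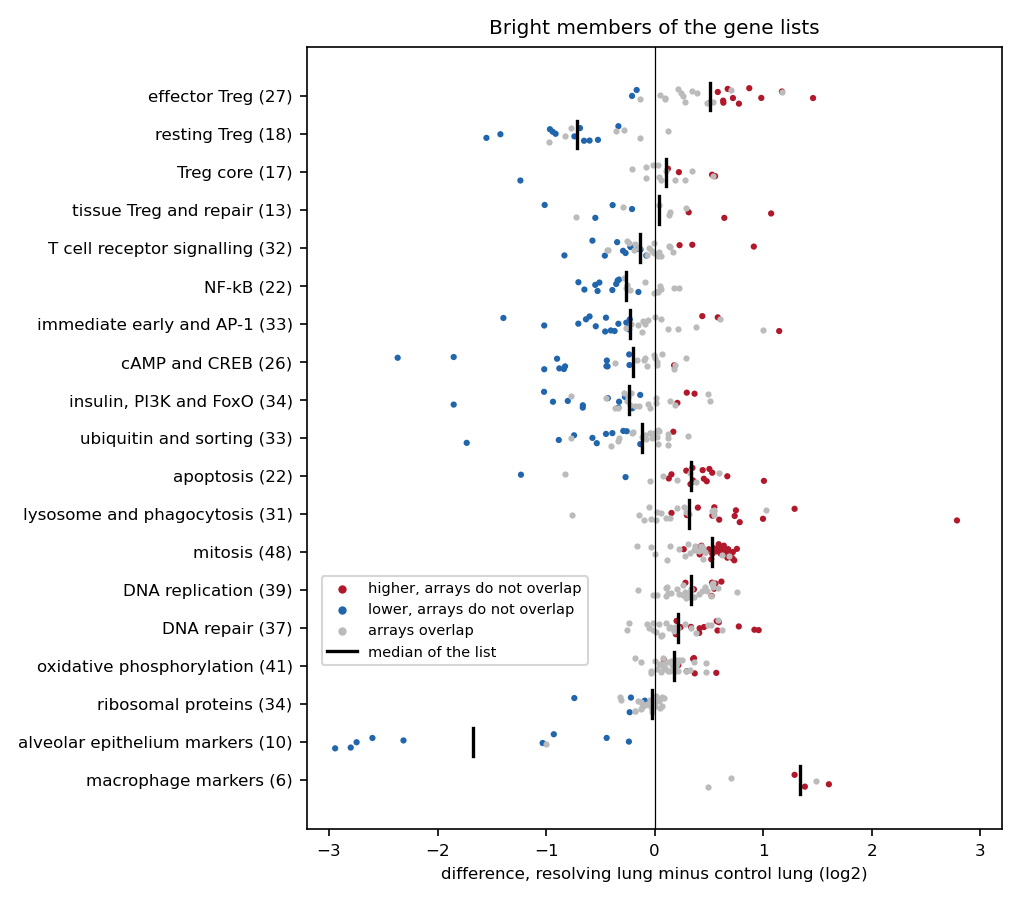
Difference between resolving lung and control lung (log2, horizontal axis) of each bright member of 19 gene lists, with the number of members in brackets. Points are coloured where the 3 resolving lung arrays do not overlap the 3 control lung arrays. Black bars are list medians, from 1.34 in macrophage markers to -1.67 in alveolar epithelium markers. Among the lists of Treg functions they run from 0.53 in mitosis to -0.71 in resting Treg genes.

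Dim genes, with a mean level under 5, come last because their levels lie nearer to background. Over all 21020 genes 96 passed (0.457%), 28 higher (0.133%) and 68 lower (0.324%), so that 16 of the calls were dim, 8 in each direction. Before adjustment, 1599 genes were higher (7.61%) and 1344 lower (6.39%) at a p under 0.05. The groups did not overlap in 1848 genes that were higher (8.79%) and 1577 that were lower (7.5%) in resolving lung. Mmp12, the macrophage elastase, was at 5.63, 6.76 and 6.38 in resolving lung and at 3.23, 2.78 and 3.23 in control lung, below the dim level in all 3 control arrays. It was at least 7.17-fold higher (limma adjusted p = 0.00967) and stayed called whichever array was left out. Asb2, a subunit of a ubiquitin ligase, was at 7.19, 5.90 and 5.49 in resolving lung and at 3.28, 3.78 and 3.37 in control lung, above the dim level in 1 of 3 control arrays (difference 2.71, limma adjusted p = 0.0351). C3ar1, the receptor of complement fragment C3a, was at 6.82, 5.46 and 5.21 in resolving lung and at 3.23, 3.00 and 3.23 in control lung, at least 5.34-fold higher (limma adjusted p = 0.0339). Usp2, a deubiquitinase with a daily rhythm, was at 2.87, 3.22 and 2.69 in resolving lung and at 4.66, 5.09 and 4.27 in control lung. It was at least 2.40-fold lower (limma adjusted p = 0.0323), with all resolving lung arrays below the dim level. Myl7, a myosin light chain of heart atria that also lines pulmonary veins in mice, was at 2.10, 2.42 and 2.26 in resolving lung and at 3.70, 4.34 and 3.69 in control lung, at least 1.41-fold lower (limma adjusted p = 0.0279). Sfta3-ps, a surfactant-associated pseudogene, was at least 1.64-fold lower (limma adjusted p = 0.0323). Of 14 cardiac muscle markers 10 were measured, 8 of them at or below the dim level in all 6 lung arrays, and their summed level was 5.68, 5.79 and 5.73 in resolving lung, against 6.77, 6.51 and 6.23 in control lung. The part of cardiac and epithelial RNA in the falls of Myl7 and Sfta3-ps, and of macrophage RNA in the rises of Mmp12 and C3ar1, was not tested.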

How the data were processed

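Each sample of sorted Treg RNA was read on 1 array (Affymetrix Mouse Gene 2.1 ST). The deposited values are log2 levels made by the authors with RMA in Affymetrix Expression Console, with Partek also named, per the submitters' processing notes; versions are not given in the sources used here. RMA subtracts background and gives all arrays the same distribution, so a change is relative to the other genes. Of 31351 rows, 21055 matched 1 gene symbol and 10296 (32.8%) had no name here. The row with the highest mean was kept for the 35 genes with several rows, 14 of which had rows of opposite sign, leaving 21020 genes.

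Resolving lung minus control lung was fitted with limma 3.58.1 (R 4.3.3) on all 9 arrays, with 6 residual and 2.29 prior degrees of freedom, two-sided, with Benjamini-Hochberg adjustment over 21020 genes at 0.05. Deviations from group means correlated at 0.174, 0.132 and 0.161 over genes between same-numbered resolving lung and spleen arrays. Between resolving lung and spleen arrays of different numbers the correlations were 0.017 or less. Values as high were seen between arrays of uninjured and injured mice, with 0.291 for replicate 1 of control and resolving lung. Control lung replicate 3 and resolving lung replicate 2 had 0.197. The labels do not pair the arrays, and these correlations cannot settle whether they are paired. A random block for same-numbered resolving lung and spleen arrays was added after seeing the data. The median SD of bright genes was 0.155 in resolving lung, 0.115 in control lung and 0.099 in spleen. The model pools the 3 groups into 1 spread per gene, so the spleen arrays, with the smallest spread, enter each p-value. Having 3 arrays per group limits the precision. The dim level was the 95th percentile of 915 olfactory receptor genes, 3.33 to 3.52 by array. A fold against a group at or below it in all arrays is a bound. Summed levels are log2 of summed linear levels.

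Named genes were those called, the largest differences, the widest gaps and, in each list, called members and those with the smallest p or widest gap. The members and lists were chosen with earlier results of these data known. Alternatives left out arrays or changed the scaling, filter or model. A few genes are not reported here.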

Additional observations from a re-analysis of the deposited data

Results flagged for a closer look

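Signal also appeared in rows that no gene symbol names. When all 31351 rows were fitted together by limma, 3 of the unnamed rows were called higher and 11 lower in resolving lung. These rows enter no comparison above, and what they measure was not analysed here.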

How the results depend on the processing

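Counts of calls depended on the processing. Directions cannot be compared with counts here, because the trend, the filters, the lung arrays alone and the replicate block leave each difference unchanged. For higher and lower bright genes (20 and 60), the counts were 0 and 0 with the lung arrays alone, with or without a trend, 164 and 217 with bright genes fitted alone, and 102 and 155 with genes of mean 4 or more. Array weights gave 38 lower bright genes, and all rows 35. For all genes (28 and 68) they were 0 and 0 with the lung arrays alone, with or without a trend, and 113 and 169 at a mean of 4 or more, with 44 lower under array weights. Leaving out 1 array gave 0 to 59 and 3 to 105 bright genes, and 1 to 90 and 3 to 122 over all genes. Leaving out replicate 1 of both lung groups, chosen after seeing the data as was the trend on lung arrays, gave 2 and 6, and 7 and 8. With the replicate block the counts were 5 and 6 for bright genes and 7 and 8 for all. This block also ties control lung arrays to the others, with which they share only a number: same-numbered correlations were 0.291, 0.068 and 0.1 between control and resolving lung, and 0.077, -0.064 and 0.049 between control lung and spleen. A random replicate block for resolving lung and spleen alone gave 23 and 63 bright genes, and 31 and 72 of all genes.

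Genes higher in every array (1198) were 1446 to 1883 with 1 array left out, which cannot shrink a gap. The 31 higher genes with a gap of 0.5 became 16 at a mean of 6 or more, 19 with both groups at 5 or more, 169 at a gap of 0.25, 3 at a gap of 1, and 37 to 81 with 1 array left out. The 62 lower genes became 228, 11 and 77 to 121 at a gap of 0.25, a gap of 1 and with 1 array left out. Directions turned for 7 of the 266 genes followed, many of which were picked for small p-values, large differences or wide gaps. Under array weights and without replicate 1 of both lung groups, H2-Eb1 (0.34) was -0.026 and -0.36, H2-Ab1 (0.33) -0.033 and -0.30, and Ccl5 (0.11) -0.0050 and -0.17, and Areg (0.15) was -0.22 without that pair. With 1 array left out the ranges were -0.37 to 0.71 for H2-Eb1, -0.44 to 0.76 for H2-Ab1, -0.14 to 0.42 for Areg, -0.12 to 0.26 for Ccl5, -0.10 to 0.42 for Lcn2 (0.10), -0.19 to 0.36 for Calcrl (0.024) and -0.078 to 0.042 for Cd3e (-0.023). Some list medians turned as well: that of bright tissue Treg and repair genes (0.037) was -0.14 without resolving lung replicate 1. The cause of these turns was not tested. The 3 arrays per group and levels near the dim level limit what could be called.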
